A study of Homo sapiens with 4 samples.

Results

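Matricellular proteins are secreted into the extracellular matrix, where they tune how cells attach, migrate and receive growth factor signals rather than forming the load-bearing scaffold. The 8 genes described here encode matricellular proteins or other matrix glycoproteins. They include SPOCK1, SPOCK2 and SPARC of the SPARC family, the thrombospondin genes THBS1 and THBS2, and the tenascin gene TNC. The others are the fibronectin gene FN1 and the fibrillin gene FBN1, which encode fibre-forming proteins. All 8 were chosen by gene symbol from a table of 60544 genes, with the result for SPOCK1 in these libraries already known. Each symbol matched 1 row of the table, and 7 of the 8 genes had enough counts to be tested. The values of the comparison of groups are therefore given for these 8 genes as a description.

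All libraries were of poly(A) RNA from PC3, an established line of human prostate cancer cells, grown in RPMI-1640 with fetal bovine serum and antibiotics. There were 4 of them, 2 of the shNC group and 2 of the sh812 group. The study set METTL3 knockdown against control. The group sh812 was taken as the knockdown since shNC is the only other group name and METTL3 was lower in sh812. The METTL3 values below are therefore not an independent check of that reading. METTL3 is the methyltransferase that places N6-methyladenosine (m6A) on messenger RNA. The labels give no treatment other than the hairpin label, and they do not say whether a group is 1 clone or a pool, nor whether replicates are separate cultures. The p-values therefore measure only the spread between these libraries, which may be technical.

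Library totals ranged from 31450648 to 37041330 counts. Levels are given as CPM, the counts scaled to the TMM-adjusted size of the library. METTL3 had 1682 and 1379 counts under shNC against 269 and 313 under sh812, where its level was 18.7% of the control (log2 fold change -2.42, adjusted p = 5.54e-14 in edgeR). TOX4, whose exons overlap METTL3 on the opposite strand, had 3297 to 3831 counts per library. All 8 of the markers looked for in PC3 carcinoma cells, among them KRT8, KRT18, EPCAM and VIM, had counts. They summed to 2222 to 2412 CPM in shNC and 2396 to 2497 CPM in sh812. Over all 16802 genes tested, 5.43% were called higher and 5.42% lower in sh812, at an adjusted p under 0.05 in edgeR. Of the 8 markers, 3 were called higher (EPCAM at 0.45, CAV1 at 0.37 and KRT18 at 0.30 on the log2 scale) and 0 lower. VIM, the most abundant at 609.9 CPM in shNC, is not specific to carcinoma, so the sum does not tell these cells from fibroblasts. KLK3 and KLK2, which mark androgen-dependent prostate cells, were at 0 in every library. The 6 markers of such cells summed to 30.7 to 32.4 CPM in shNC and 12.9 to 15.3 CPM in sh812. Of the 4 that were tested, 2 were called lower. Because fibroblasts make much of the matrix in tissue, 10 fibroblast markers were also read. They summed to 57.0 to 60.2 CPM in shNC and 52.1 to 58.1 CPM in sh812, with COL1A1 the most abundant, and 0 of the 10 were at 3 counts or fewer in all 4 libraries. Within that sum COL3A1 was called lower, from 111 and 125 counts to 45 and 40, and COL1A2 higher, from 360 and 302 counts to 476 and 480. The part of these marker differences in the results below was not tested. In bulk RNA, fewer cells that make a transcript and less of it per cell cannot be told apart.

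SPOCK1 encodes testican-1, a secreted proteoglycan with a calcium-binding domain like that of SPARC and a protease-inhibitor-like thyroglobulin domain. SPOCK2 encodes its relative testican-2. SPARC, or osteonectin, binds collagen and calcium. The thrombospondins THBS1 and THBS2 bind many matrix proteins and cell surface receptors, CD47 and CD36 among them, and THBS1 can activate latent TGF-beta. TNC is a large multi-armed glycoprotein of wounds and tumour stroma. FN1 forms fibrils that cells hold through integrins, and FBN1 builds the microfibrils on which latent TGF-beta is stored.

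METTL3 prefers the A of short sequences such as GGACT in RNA, written here as DNA. Methylation was not measured in these libraries, so a match is only a description of the letters. The reference transcripts of the 8 genes (GENCODE 29, GRCh38) were searched on the transcript strand for GGACT, which 91.6% of the transcripts of 13228 tested protein-coding genes hold at least once. The SPOCK1 transcript of 4846 bases held 3 matches, or 0.619 per kb against a median of 0.932 per kb over these genes. Of the 3, 1 lay in the 5′ untranslated region and 2 in the coding sequence. None lay in its 3′ untranslated region of 3356 bases, and 4.90% of the 2409 3′ untranslated regions of at least 3000 bases had none either. The 3 windows of SPOCK1 are shown because it had the largest decrease among the 8 genes, and the window of SPOCK2 because it resembles the last of them. The capitals mark GGACT, and distances run from the A to the last base of the stop codon.
SPOCK1, 1346 bases before: agcaactcGGACTaggggacc
SPOCK1, 1018 bases before: gtgacccaGGACTaccagacc
SPOCK1, 580 bases before: atctgcaaGGACTccctgggc
SPOCK2, 532 bases before: agctgcaaGGACTccattggc

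The last 2 windows were identical at 18 of 21 bases, which include the GGACT that every window holds. SPOCK2 had 7 matches in all, 4 of them in the 3′ untranslated region. SPARC had 7, of which 3 were in the 3′ untranslated region, at 1.89 per kb. THBS1 had the most, 16, and the highest density, 2.06 per kb, with 7 matches in the 3′ untranslated region. THBS2 had 5. In TNC all 11 matches and in FN1 all 4 lay in the coding sequence, and FBN1 had 5 there and 1 in the 3′ untranslated region. The first match after the stop codon of THBS1 and the pair of coding matches that stand at the same distance in THBS1 and THBS2 are shown, since THBS1 had the most matches and THBS2 is its close relative.
THBS1, 134 bases after: atcagtgtGGACTcctagaac
THBS1, 754 bases before: gaccagaaGGACTctgacggc
THBS2, 754 bases before: gaccaggaGGACTtggacggt
THBS1, 493 bases before: aatgctgtGGACTtcagtggc
THBS2, 493 bases before: gggtctgtGGACTtcagtggc

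In both pairs the windows were identical at 17 of 21 bases, again with the shared GGACT included. The density of GGACT is set here beside the changes given below. SPOCK1, FN1 and FBN1 had low densities, at the 28.9, 21.6 and 21.8 percentiles of the 13228 genes, and SPARC and THBS1 high ones, at the 89.2 and 92.0 percentiles. TNC stood at the 76.9 percentile, SPOCK2 at 70.0 and THBS2 at 45.3. Across the 13228 genes the Spearman correlation of the density with the log2 fold change was 0.025, where all genes share the same 4 libraries.

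The 8 genes fell into 3 ranges of abundance. Levels are compared between genes as CPM per kb of exon, where the length joins all annotated exons of a gene. That length was 17315 bases in FN1 and 9636 in TNC, against 7898 and 7641 in their reference transcripts. In shNC the highest were TNC at 38.4 ± 0.585, FN1 at 37.5 ± 0.689 and THBS1 at 32.8 ± 0.350 CPM per kb (SD, n = 2). The TNC and FN1 libraries overlapped, and both THBS1 libraries lay below all of theirs. The order of TNC and FN1 depends on the length used. Their reference transcripts are close in length, and in CPM FN1 stood at 649.8 and TNC at 369.8 in shNC. The middle range held SPOCK1 at 5.98 ± 0.354, FBN1 at 4.33 ± 0.000214 and SPARC at 3.16 ± 0.553 CPM per kb (SD, n = 2), with no overlap between neighbours. SPOCK2 at 0.0481 and THBS2 at 0.0263 CPM per kb were close to the limit of detection. In sh812 the order of the middle range differed. FBN1 was at 3.95 ± 0.159 CPM per kb, SPOCK1 at 2.39 ± 0.0903 and SPARC at 2.31 ± 0.167 (SD, n = 2), and the SPOCK1 and SPARC libraries overlapped.

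**Figure D1:**
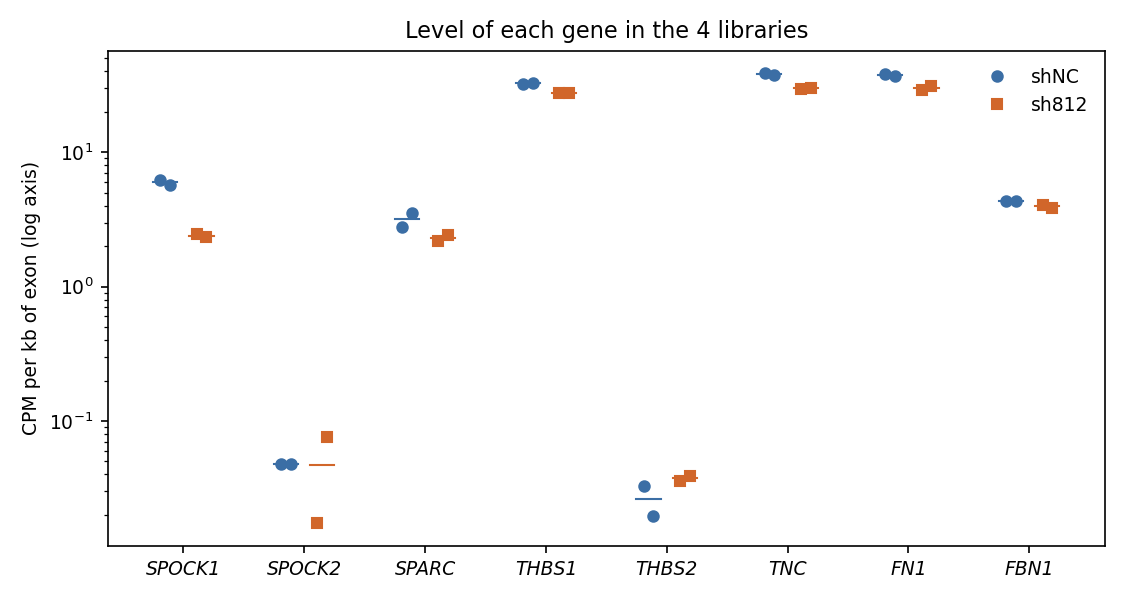
CPM per kb of exon (log axis) of the 8 genes, with 1 point per library, circles for shNC and squares for sh812, and a bar at each mean. SPOCK1 goes from 5.98 to 2.39 CPM per kb, the widest gap among the abundant genes, while SPOCK2 and THBS2 sit under 0.1 in every library.

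SPOCK1 (ENSG00000152377) lies on chromosome 5 (minus strand, 136975298 to 137598379 in GENCODE 29, as for the other genes). Its counts were 1471 and 1128 under shNC, against 536 and 518 under sh812. On the CPM scale these were 38.8 and 35.7 in shNC and 15.3 and 14.5 in sh812. Both sh812 libraries were low and the groups did not overlap: the higher sh812 library lay 1.22 below the lower control on the log2 scale. The mean level in sh812 was 40.0% of that in shNC, with a fitted log2 fold change of -1.32 (SE 0.10, 95% interval -1.53 to -1.12). Replicate 2 minus replicate 1 was -0.12 in shNC and -0.08 in sh812 on the log2 scale. The log2 fold change ran from -1.38 to -1.26 over the 15 alternatives tried.

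SPARC (ENSG00000113140), also on chromosome 5 (minus strand, 151661096 to 151687165), had 508 and 543 counts in shNC and 372 and 420 in sh812. These were 13.4 and 17.2 CPM in shNC and 10.6 and 11.7 CPM in sh812. The groups did not overlap, but the shNC libraries differed from each other by 0.36 on the log2 scale. The log2 fold change was -0.45 (SE 0.13, 95% interval -0.72 to -0.17). It was -0.26 without shNC replicate 2, the higher control, and -0.62 without shNC replicate 1. SPARC was past the threshold of an adjusted p under 0.05 in edgeR, and not in DESeq2 (log2 fold change -0.45) nor without shNC replicate 2, sh812 replicate 1 (-0.38) or sh812 replicate 2 (-0.53).

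SPOCK2 (ENSG00000107742, chromosome 10, 72059035 to 72089032) was barely detected. Its counts were 12 and 10 in shNC and 4 and 18 in sh812, or 22 in each group, and each of these sums has an exact Poisson 95% interval of 13.8 to 33.3 that covers counting error only. The sh812 libraries lay on either side of the controls. The fitted log2 fold change was -0.03 with an interval of -1.57 to 1.51, so no difference was detectable at this depth, and it became 0.66 without sh812 replicate 1.

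Of the 2 thrombospondins only THBS1 was abundant. THBS1 (ENSG00000137801), on chromosome 15 (plus strand, 39581079 to 39599466), had 11300 and 9565 counts in shNC and 8878 and 9029 in sh812. These were 297.9 and 302.5 CPM in shNC and 252.9 and 252.3 CPM in sh812. The shNC replicates differed by 0.02 on the log2 scale, those of sh812 by less, and the groups did not overlap. The log2 fold change was -0.25 (SE 0.06), so that sh812 held 84.2% of the control level. Without sh812 replicate 1 or 2 the log2 fold change was still -0.25 and it was not past the threshold of the 3-library fit. Exons of FSIP1, on the opposite strand, overlap those of THBS1, but FSIP1 had 37 to 88 counts per library. THBS2 (ENSG00000186340, chromosome 6, 169215780 to 169254044) had 8 and 4 counts in shNC and 8 and 9 in sh812, and did not pass the filter on low counts. The exact Poisson intervals of its group sums, 6.20 to 21.0 and 9.90 to 27.2 counts, overlap.

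TNC (ENSG00000041982), on chromosome 9 (minus strand, 115019578 to 115118257), had 14179 and 11570 counts in shNC and 10057 and 10382 in sh812. Its level was 373.8 and 365.9 CPM in shNC and 286.5 and 290.1 CPM in sh812. Both sh812 libraries were below both controls, and replicate 2 minus replicate 1 was -0.03 in shNC and 0.02 in sh812 on the log2 scale. The log2 fold change was -0.36 (SE 0.06, 95% interval -0.48 to -0.24), and it kept its side of the threshold in each of the 15 alternatives. DEC1, whose exons overlap TNC on the opposite strand, had 2 to 11 counts per library.

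FN1 and FBN1 encode the fibre-forming proteins of the set. FN1 (ENSG00000115414), on chromosome 2 (minus strand, 215360440 to 215436172), had 24967 and 20283 counts in shNC and 17646 and 19340 in sh812, the most of the 8 genes. On the CPM scale these were 658.2 and 641.4 in shNC and 502.7 and 540.4 in sh812, with no overlap. The log2 fold change of FN1 was -0.32 (SE 0.06), and -0.26 without sh812 replicate 1, where it was not past the threshold. FBN1 (ENSG00000166147), on chromosome 15 (minus strand, 48408306 to 48645849), was at 69.6 CPM in both shNC libraries and at 65.3 and 61.7 CPM in sh812. The FBN1 libraries did not overlap either, but the log2 fold change of -0.13 (SE 0.07, 95% interval -0.28 to 0.01) was not past the threshold. The intervals of FN1 (-0.44 to -0.20) and FBN1 overlap, and the difference between their changes was not tested.

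Over the whole table, edgeR (quasi-likelihood, Benjamini-Hochberg) put 10.8% of 16802 genes past the threshold, 910 lower (5.42%) and 912 higher (5.43%) in sh812. With library size alone the lower genes were 1328 (7.9%) and the higher 561 (3.34%). Of the 7 tested genes of the set, 5 were past the threshold, all lower: SPOCK1, SPARC, TNC, FN1 and THBS1. The count was 4 in DESeq2, where 12.2% of the 12241 genes given an adjusted p passed and SPOCK2 was given none. Leaving out sh812 replicate 1 gave 2 and leaving out sh812 replicate 2 gave 3, in fits where 3.28% and 3.81% of all genes passed. The median log2 fold change of the 7 was -0.32, against -0.01 over all genes tested. Groups did not overlap in 6 of the 7, against 53.6% of all genes tested. The genes were listed with this comparison known, so these counts describe them and support nothing further. SPOCK1 stood 49th among the 910 lower genes by size of change, and SPARC, TNC, FN1 and THBS1 between the 335th and the 785th place.

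**Figure D2:**
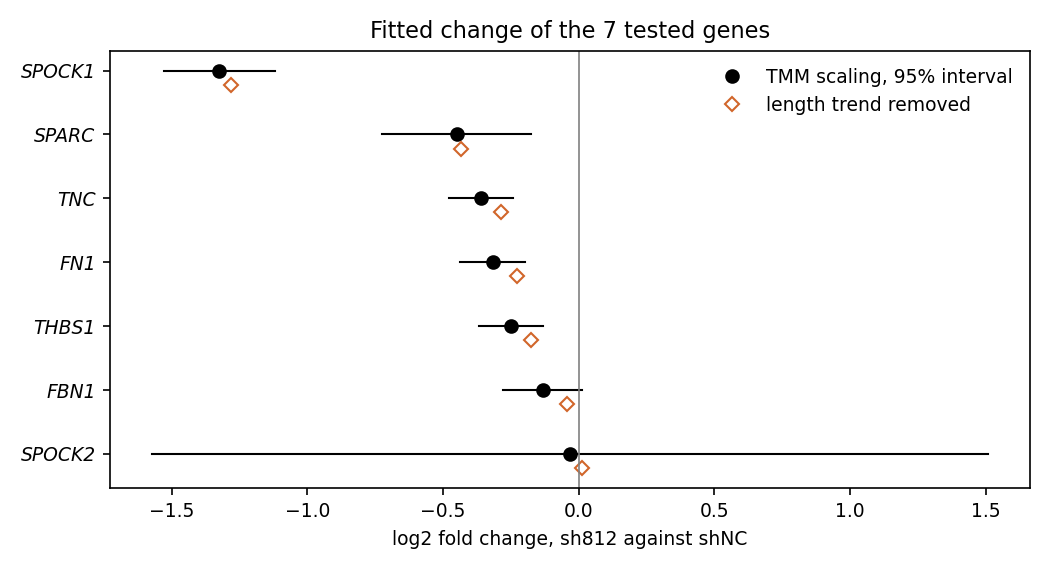
Log2 fold change of sh812 against shNC for the 7 tested genes, with 95% intervals from edgeR (black, n = 2 per group) and the value with each library's length trend removed (open diamonds). SPOCK1 stands at -1.32, apart from the next gene, SPARC, at -0.45, and the interval of SPOCK2 spans -1.57 to 1.51.

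The exon sequence of 7 of the 8 genes is longer than the median of 5147 bases over protein-coding genes, and the group difference moved with length. Over the 12257 genes above a mean log2 CPM of 1, exon length and the sh812 minus shNC difference had a Spearman correlation of -0.30. Replicate 2 minus replicate 1 gave -0.30 in shNC as well, and 0.03 in sh812. Genes were split into 10 classes of length. In the class of longest genes, which holds FN1 and FBN1, the median group difference in log2 CPM was -0.08, and in the next, which holds THBS1 and TNC, it was -0.07. In class 7, which holds SPOCK1, it was -0.03. With each library's length trend removed, the log2 fold changes were -1.28 for SPOCK1, -0.43 for SPARC, -0.28 for TNC, -0.23 for FN1, -0.18 for THBS1 and -0.04 for FBN1. The same 5 genes were past the threshold, with 9.96% of all genes, and the median of the 7 was -0.23. THBS1 and SPARC passed narrowly, at adjusted p = 0.044 and 0.0398 in edgeR, against 0.0059 and 0.0301 before the removal. SPOCK2 changed sign, to 0.01.

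**Figure D3:**
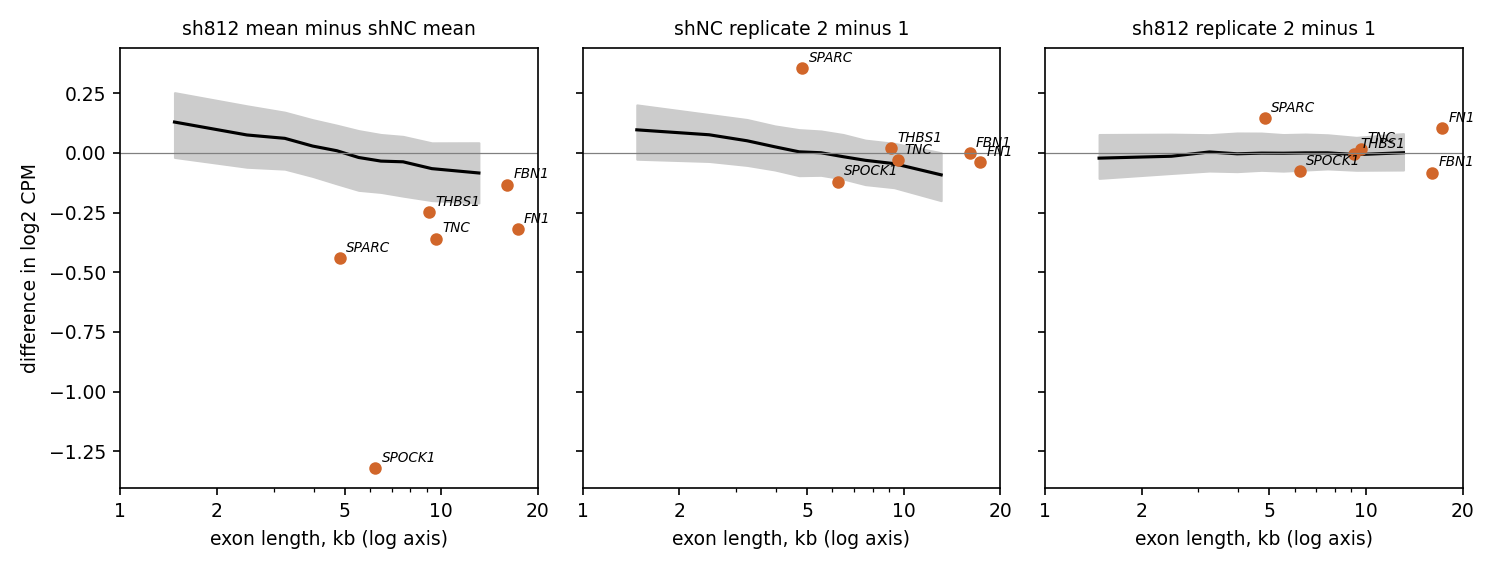
Difference in log2 CPM against exon length (log axis) for sh812 minus shNC means and for replicate 2 minus replicate 1 in each group. The line and band give the median and quartiles of genes in 10 equal classes of length, and points mark the 6 genes of the set in this range of expression. SPOCK1 lies at -1.32 in the first panel and at -0.12 and -0.08 in the others.

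The relatives of these genes, listed by function with the set itself left out, were read in the same fit. Of 115 genes, 95 were tested, and 27 of them (28.4%) were past the threshold, 21 lower and 6 higher, against 10.8% of all genes. Their median log2 fold change was -0.14, with 64 lower and 31 higher, and it was -0.12 with the length trend removed. The number past the threshold ran from 15 without sh812 replicate 1, where 3.28% of all genes passed, to 36 without shNC replicate 1, where 10.4% did. Results of these data were known when the groups were listed, so they are not independent of them.

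In the SPARC family both other genes tested were lower. FSTL1, which encodes a secreted follistatin-like glycoprotein, fell from 538.9 ± 7.81 to 423.8 ± 7.75 CPM (SD, n = 2), or -0.35 on the log2 scale (adjusted p = 0.000197 in edgeR). SPOCK3, the third testican gene, fell from 10.0 ± 0.835 to 7.13 ± 1.14 CPM (SD, n = 2), at -0.49 (adjusted p = 0.0389 in edgeR). SPOCK3 was not past the threshold in DESeq2 (-0.48), without shNC replicate 2 (-0.39) or without sh812 replicate 1 (-0.33). SMOC1, SMOC2 and SPARCL1 had at most 10 counts in a library and were not tested. THBS3 and TNXB, the only other thrombospondin and tenascin genes tested, had log2 fold changes of -0.06 and -0.41 and did not pass (adjusted p = 0.85 and 0.45 in edgeR). Both signs rested on 1 library, since THBS3 was at 0.05 without shNC replicate 2 and TNXB at 0.06 without shNC replicate 1. TNXB ran from there to -0.84 without sh812 replicate 2.

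CCN genes encode matricellular proteins that act through integrins, and CCN1 and CCN2 are known as targets of YAP and TGF-beta signalling. CCN1 fell from 315.7 ± 11.9 to 234.9 ± 10.6 CPM (SD, n = 2), a log2 fold change of -0.43 (adjusted p = 3.57e-05 in edgeR). CCN2 fell from 34.2 ± 0.170 to 26.0 ± 0.683 CPM (SD, n = 2), at -0.39 (adjusted p = 0.0059 in edgeR), and was not past the threshold without sh812 replicate 1 (-0.37). The third tested gene of the family, CCN3, was at 0.23 and did not pass (adjusted p = 0.056 in edgeR). Of 9 other matricellular genes tested, 3 were lower and 0 higher past the threshold. MFGE8, a secreted integrin ligand, fell by 0.74 on the log2 scale (adjusted p = 4.08e-06 in edgeR). TGFBI, which encodes an integrin-binding matrix protein induced by TGF-beta, fell from 2834 and 2592 counts to 855 and 962, at -1.61 (adjusted p = 9.36e-13 in edgeR).

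Among 23 tested fibrillin, fibulin, LTBP and cross-linking genes, 4 were lower and 1 was higher past the threshold, with a median of -0.18. LTBP1 and LTBP2 belong to the latent TGF-beta binding proteins, which attach to fibrillin and fibronectin fibres. LTBP1 fell from 359.0 ± 16.6 to 275.5 ± 9.47 CPM and LTBP2 from 30.8 ± 0.306 to 19.8 ± 2.02 CPM (SD, n = 2). Their log2 fold changes were -0.38 and -0.63 (adjusted p = 0.000123 and 0.000157 in edgeR). FBN2, the other fibrillin gene named here, fell from 236.5 ± 9.80 to 192.3 ± 0.0925 CPM (SD, n = 2). The log2 fold change of FBN2 was -0.30 (adjusted p = 0.00177 in edgeR), and it was not past the threshold without either sh812 library (-0.30 in both fits). NID2, a basement membrane linker, rose from 11.5 ± 0.518 to 17.4 ± 0.796 CPM (SD, n = 2), at 0.60 (adjusted p = 0.00174 in edgeR). Exons of NID2 overlap RTRAF on the opposite strand, which had 12917 to 15506 counts per library.

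Receptors of these proteins were called in both directions, 5 of 19 lower and 2 higher, with a median of -0.18. ITGB1, the shared beta subunit of many matrix integrins, fell from 2836 ± 122 to 1915 ± 6.43 CPM (SD, n = 2), a log2 fold change of -0.57 (adjusted p = 9.97e-08 in edgeR). The syndecan SDC3 fell by 0.71 on the log2 scale (adjusted p = 6.82e-06 in edgeR), and ITGB5, a partner of the alpha-V integrin, fell by 0.40 (adjusted p = 0.0025 in edgeR). ITGA2, a collagen-binding subunit, rose by 0.31 on the log2 scale (adjusted p = 0.00174 in edgeR), but not past the threshold without sh812 replicate 2 (0.28). SDC2 rose by 0.34 (SE 0.11, adjusted p = 0.0374 in edgeR), and was not past the threshold with library size alone (0.30), in DESeq2 (0.35) or without shNC replicate 1 (0.29), sh812 replicate 1 (0.41) or sh812 replicate 2 (0.27). CD47, a thrombospondin receptor, was at -0.18 (adjusted p = 0.053 in edgeR), and CD36 had at most 4 counts in a library.

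The proteases and inhibitors that act on the matrix had 3 genes lower and 3 higher past the threshold among 25 tested, with a median of -0.11. MMP3, or stromelysin, rose from 112 and 130 counts in shNC to 268 and 293 in sh812, at 1.17 (SE 0.19, adjusted p = 0.000162 in edgeR). The inhibitor TIMP1 rose by 0.35 (adjusted p = 0.000743 in edgeR) and TIMP2 fell by 0.25 on the log2 scale (adjusted p = 0.00866 in edgeR). The protease genes CTSB and PLAT fell by 0.33 and 0.30 (adjusted p = 0.000544 and 0.0208 in edgeR), and TLL1 rose by 0.41 (adjusted p = 0.0235 in edgeR). TIMP1 was not past the threshold without sh812 replicate 2 (0.25), PLAT without sh812 replicate 1 (-0.23) and TIMP2 without either sh812 library (-0.23 and -0.27). TLL1 lost it with library size alone (0.36) and without shNC replicate 2 (0.31), sh812 replicate 1 (0.42) or sh812 replicate 2 (0.39).

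The TGF-beta ligands, receptors and SMADs stood near 0, with a median of 0.03 over 12 genes, or -0.02 with library size alone. Of these, 2 (16.7%) were lower and 0 higher past the threshold, against 10.8% of all genes called in either direction. SMAD7, an inhibitor of the receptors, fell from 190 and 128 counts to 90 and 90, at -0.84 (SE 0.22, adjusted p = 0.0156 in edgeR). SKIL, which restrains SMAD complexes, fell by 0.35 on the log2 scale (adjusted p = 0.00241 in edgeR). SMAD7 was not past the threshold without shNC replicate 1 (-0.67), sh812 replicate 1 (-0.85) or sh812 replicate 2 (-0.82), nor SKIL without sh812 replicate 1 (-0.34). SKI, a close relative of SKIL, was at 0.06 and did not pass (adjusted p = 0.60 in edgeR).

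**Figure D4:**
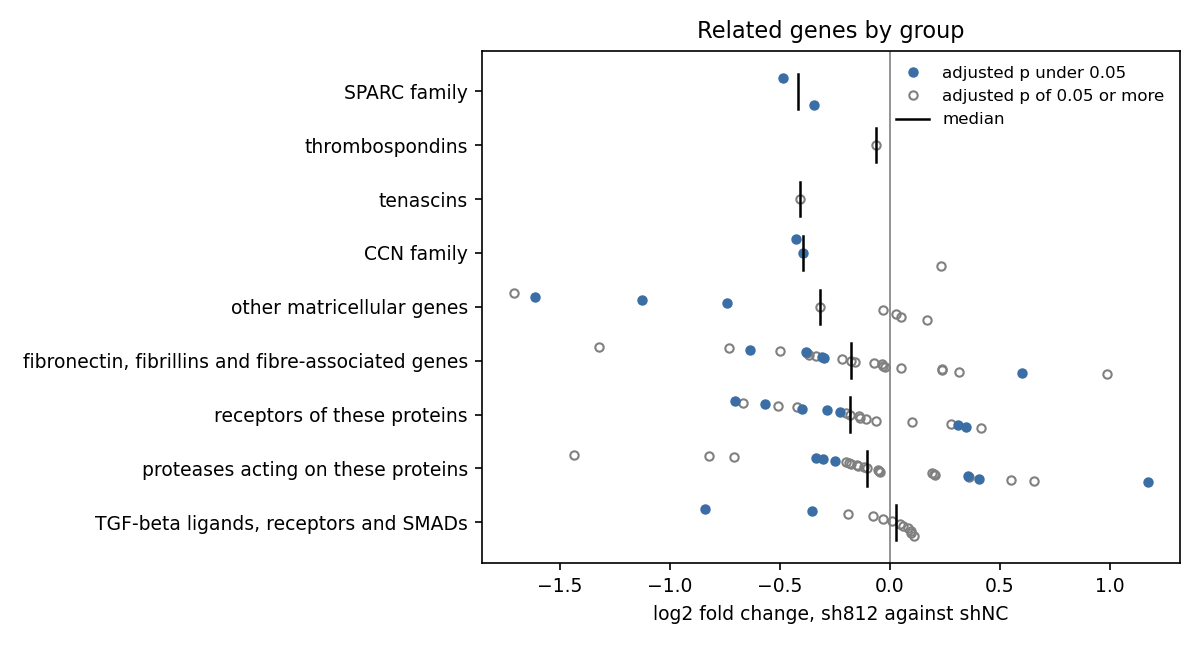
Log2 fold change of sh812 against shNC for the 95 tested related genes by group, with filled points for an adjusted p under 0.05 in edgeR and a bar at each median. The SPARC family and CCN medians lie at -0.42 and -0.39, and that of the TGF-beta group at 0.03.

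The genes with the profile most like that of SPOCK1 were looked for among 10419 protein-coding genes with a mean of at least 5 CPM. Likeness was the root mean square difference of log2 CPM over the 4 libraries, each gene centred on its own mean. The closest were IL6 (0.085), DENND11 (0.087), TCN1 (0.107), RRBP1 (0.113) and NLGN4X (0.126), with log2 fold changes from -1.35 to -1.11. RRBP1 was the most abundant of them, at 410.9 and 354.8 CPM in shNC and 180.2 and 175.0 CPM in sh812. They were selected for this pattern, so their changes are a description. Among genes of the set above this level, SPARC came nearest to SPOCK1 at a difference of 0.477, behind 406 other genes. FBN1 was the farthest of them at 0.595. SPOCK2 and THBS2 lay below 5 CPM and were not compared.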

How the data were processed

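The authors deposited raw read counts per gene for 4 poly(A) RNA libraries, as whole numbers that differ in total between libraries. Per the submitters' processing notes, fastp, STAR 2.7.1a, featureCounts, DESeq2 and hg38 were used, with no roles given. The annotation release and strand setting are not given in the sources used here, so overlapping genes on opposite strands may share reads.

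The test was edgeR 4.0.16 (R 4.3.3) with filterByExpr, TMM, glmQLFit and glmQLFTest, without covariates, with Benjamini-Hochberg adjustment over 16802 genes and a threshold of 0.05. Fitted fold changes used a prior count of 0.125, and the SE was derived from the F statistic. Exon lengths, positions and transcripts are from GENCODE 29 (GRCh38), matched by Ensembl identifier, for 16635 of the tested genes. Replicates differed beyond sampling noise (chi-square per gene 8.43 in shNC and 4.51 in sh812), so each library counted as 1.

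The members and gene lists were chosen with earlier results of these data known. Named genes are the 8 members, METTL3, up to 3 called genes per direction in each list, and the 5 closest in profile to SPOCK1. Some genes of these lists are not reported here. THBS3, TNXB, CCN3, CD47, SMOC1, SMOC2, SPARCL1, CD36, SKI and the called markers were added after their values were seen. Alternatives were RLE, upper quartile and no scaling factors, other filters, the replicate block, DESeq2 1.42.0, limma-voom (limma 3.58.1), removal of each library's length trend (lowess, span 0.3), a prior count of 2 and each library left out. On simulated counts for this comparison, with 16296 genes tested, the test recovered 53% of genes given a change of log2 0.5 and 64% of those given log2 1, and made 2 false calls. Intervals on counts cover counting error only.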

Additional observations from a re-analysis of the deposited data

How the results depend on the processing

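METTL3 and SPOCK1 kept their direction and side of the threshold in each of 15 alternatives, from -2.52 to -2.33 and from -1.38 to -1.26. TNC did so from -0.40 to -0.28, and FBN1 stayed short of the threshold from -0.18 to -0.04. A prior count of 2 changes the fitted fold change and not the p-value, so no gene could cross the threshold there. Leaving out a library leaves 1 sample in a group, which is assumed to vary like the other group. In these fits the genes called ran from 587 (without sh812 replicate 1) to 3252 (without shNC replicate 2), with 682 without sh812 replicate 2. Of the 8 genes, 2 to 5 were called in them, and of the related genes 15 to 36. The cause of these differences was not tested. SPOCK2 reversed, to 0.0135 with the length trend removed and to 0.66 without sh812 replicate 1, and stood at -1.45 without sh812 replicate 2, at 4 to 18 counts per library. With library size alone the median of all genes moved from -0.01 to -0.05. Replicates carry the numbers 1 and 2 in each group, and no label ties a number to a day or batch. Deviations of same-numbered libraries correlated at 0.0164 across genes. With the replicate block 2001 genes were called, METTL3 stood at -2.42, and the same 5 of the 8 genes and all 27 related genes were still called. With the block and the length trend removed together, 2193 genes and 5 of the 8 were called. Genes with few counts, such as SPOCK2 and THBS2, are limited by depth.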
